A study of Homo sapiens with 5 samples.

Results

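Of 11260 merged regions of methylated DNA in K562 cells, 897 (7.97%) had a peak in WT bulk, WT transfected and MT4 and in neither MT1 nor MT2. They were chosen by that pattern alone: peaks of the 5 lists that overlapped by 1 bp or more were merged, and the libraries holding a peak were read off each merged region. The regions held by all 5 libraries, 835 in number (7.42%), served as the comparison. K562 is a human leukaemia line of erythroid and myeloid character, grown in culture. The wild-type group (genotype "wild type") had 2 libraries, WT bulk and WT transfected, and the group with genotype "DNMT3A mutated" had 3, MT1, MT2 and MT4. The series title gives CRISPR/Cas9 as the means of mutation, and the labels speak of clones, so each mutated library stands for 1 line. The labels used here state neither which mutation each line carries nor what WT transfected received, and MT4 is a mutated line that shares the presence of all 897 regions with the wild-type libraries.

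DNMT3A adds methyl groups to cytosines that carried none before, mostly where cytosine precedes guanine, and DNMT1 copies existing methylation after replication. Methylated DNA immunoprecipitation (MeDIP) enriches fragments with 5-methylcytosine, so a peak marks a stretch where enough methylated fragments collected to pass the peak caller's limit. The signal grows with the density of methylated CpG, and a site that misses the limit need not be unmethylated.

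The lists held 2842 peaks in MT1 and 1426 in MT2, against 6213 in WT bulk, 4470 in WT transfected and 8399 in MT4. The lowest score kept was about 90 in all 5 lists. A region absent from MT1 and MT2 is thus absent from the 2 shortest lists, and whether it was less methylated or fell under the limit for want of signal cannot be told apart. Read totals per library and counts per peak were not used here, so depth is unknown. The pattern uses all 5 libraries, which leaves no replicate on which to test it. What follows is therefore a description, and the Wilson intervals given beside shares cover counting error only.

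In the 3 lists that held them, the regions lacking MT1 and MT2 sat in the middle of the score range. The score percentile is the share of a list's peaks that score at or below the peak in question, and the highest-scoring peak stood for a region with several. The median percentile was 49.9 in WT bulk (quartiles 29.1 to 67.6), 44.2 in WT transfected (25.4 to 63.2) and 62.0 in MT4 (40.1 to 78.7). Regions held by all 5 libraries stood at 89.8, 85.4 and 91.8 in the same lists. Averaged over the 3 lists, the median was 50.6 against 87.1, a difference of -36.5 percentile points. The difference had the same sign in all 3 lists, at -40.0 in WT bulk, -41.2 in WT transfected and -29.8 in MT4 (SD of the 3 values 6.22). In units of the deposited score, the medians of the regions lacking MT1 and MT2 were 126 in WT bulk, 116 in WT transfected and 138 in MT4, against 217, 186 and 228. These values come from the lists that fixed the pattern and were given no test.

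**Figure D1:**
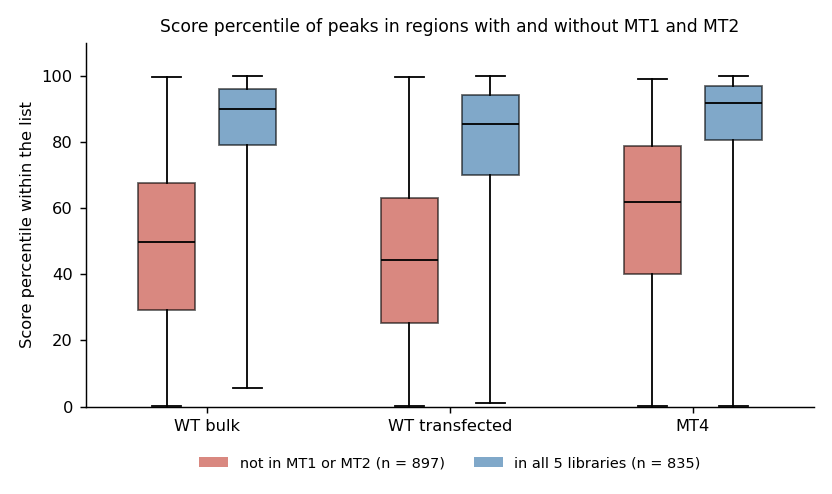
Score percentile within each list (vertical axis, 0 to 100) of the 897 regions lacking MT1 and MT2 and the 835 regions held by all 5 libraries, by library (horizontal axis). Boxes span the quartiles with the median as a line and whiskers reach the lowest and highest region; in each list the upper quartile of the first class lies below the lower quartile of the second.

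Regions that lacked only 1 of the pair lay between. The 895 regions held by MT1 but not MT2 had a median mean percentile of 66.1, and the 188 held by MT2 but not MT1 had 66.2. The share lacking both moved with the score among all 2815 regions held by WT bulk, WT transfected and MT4, of which 31.9% lacked both, 38.5% lacked MT1 and 63.7% lacked MT2. When these regions were divided into 10 score classes of equal size by mean percentile, from class 1 (lowest) to class 10, 71.3% of class 1 lacked both (201 of 282; 95% Wilson interval 65.7 to 76.2%). The share was 36.9% in class 5 (31.5 to 42.7%), 10.6% in class 8 (7.55 to 14.8%) and 1.06% in class 10 (3 of 282; 0.362 to 3.08%). It was lower at each step from class 1 to class 10.

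**Figure D2:**
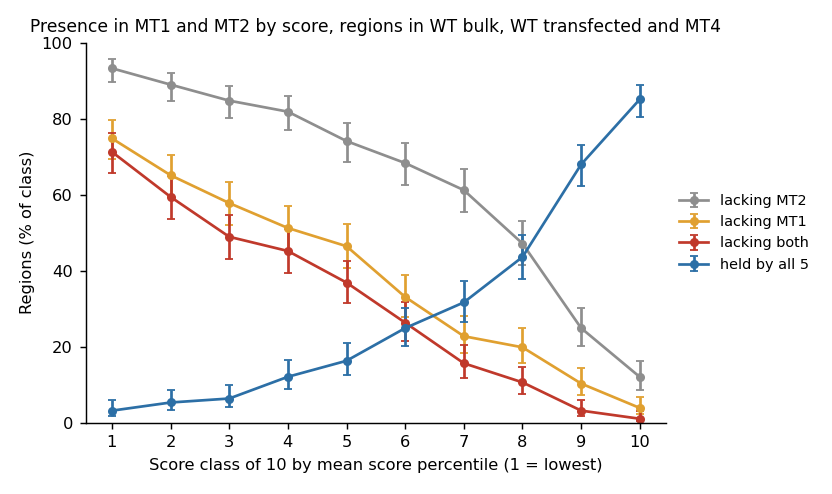
Percentage of regions (vertical axis) in each of 10 classes of the mean score percentile (horizontal axis, 1 lowest) that lacked MT1, MT2 or both or were held by all 5 libraries, among the 2815 regions held by WT bulk, WT transfected and MT4. Points are shares and bars 95% Wilson intervals; the share lacking both falls from 71.3% to 1.06%, while the share held by all 5 rises from 3.19% to 85.1%.

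Absence from MT1 and absence from MT2 went together. Of regions lacking MT1, 82.7% also lacked MT2 (897 of 1085; 80.3 to 84.8%), against 51.7% of regions holding MT1 (895 of 1730; 49.4 to 54.1%). Regions of low score lacked both more often, so the gap was also taken within score classes. It was positive in 9 of 10 classes, with a median of 8.88 percentage points and a range from -0.211 to 16.8. The Wilson intervals of both shares overlapped in every class except 4 and 6. Classes 9 and 10 held only 29 and 11 regions lacking MT1. Scores still differ within a class, and their part in the remaining gap was not tested.

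List length and rank were set side by side, because a list of 1426 or 2842 peaks cannot hold every region of a longer one. Among the 897 regions, 162 (18.1%; 15.7 to 20.7%) ranked within the first 2842 peaks, the length of the MT1 list, in all 3 lists that held them. Only 26 (2.90%; 1.99 to 4.21%) ranked within the first 1426, the length of the MT2 list, in all 3. For the regions held by all 5 libraries the same shares were 81.1% (677 of 835) and 55.7% (465 of 835). Taken list by list, the share of the 897 within the first 2842 peaks was 44.3% in WT bulk (41.0 to 47.5%), 59.6% in WT transfected (56.4 to 62.8%) and 43.1% in MT4 (39.9 to 46.4%). Within the first 1426 it was 14.05%, 19.2% and 17.2%. When every list was limited to its 1426 best peaks, 57 regions with this pattern were found in place of 897. They were 8.66% of the 658 regions then held by WT bulk, WT transfected and MT4, beside 31.9% of 2815 with the full lists.

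The percentiles of the 897 regions were weakly related between the 3 lists. Pearson's r across regions was 0.27 between WT bulk and WT transfected, 0.26 between WT bulk and MT4 and 0.21 between WT transfected and MT4, with Spearman's rho of 0.27, 0.28 and 0.23. For the regions held by all 5 libraries r was 0.48, 0.48 and 0.43 and rho 0.65, 0.64 and 0.58. These are correlations over regions, which are not replicates, within lists of different lengths.

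MT4, the mutated line that kept these regions, gave the highest of the 3 percentiles in 471 of 897 (52.5%; 49.2 to 55.8%) and the lowest in 179 (20.0%). In regions held by all 5 libraries it gave the highest in 417 of 835 (49.9%; 46.6 to 53.3%) and the lowest in 186 (22.3%). The median of MT4 minus the wild-type mean was 12.9 percentile points (quartiles -5.06 to 30.2) against 2.63 (-1.03 to 10.8). The percentile depends on list length, and MT4 has the longest list, so a given rank stands higher there. Regions held by all 5 had median percentiles of 85.4 to 91.8, close to the top of the scale. That leaves them less room for such a difference. In the deposited score, the medians of the 897 were 138 in MT4, 126 in WT bulk and 116 in WT transfected. Those of regions held by all 5 were 228, 217 and 186 in the same order. Some single regions lay far apart. On chromosome 5 from 68787946 to 68790047 the scores were 322 in WT bulk, 220 in WT transfected and 93.2 in MT4, which was close to the limit in the mutated line. On chromosome 9 from 35182835 to 35184716 they were 226, 206 and 91.9 in the same order. The opposite was seen on chromosome 8 from 56013593 to 56015962, with 92.0, 105 and 277. These 3 were picked after their values were seen, as the extremes of MT4 minus wild type.

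The 10 regions with the highest mean percentile were the clearest cases of a strong peak in 3 libraries and none in MT1 and MT2. The first lay on chromosome 6 from 46655067 to 46656837 and scored 245 in WT bulk, 248 in WT transfected and 363 in MT4. The second, from 30442251 to 30443432 on the same chromosome and within the major histocompatibility complex, which holds the HLA genes of antigen presentation, scored 267, 283 and 258. The third, also on chromosome 6 (41068072 to 41069709), scored 251, 269 and 255. The percentiles of all 3 regions lay between 93.7 and 98.9 in every list that held them, and the first scored highest in MT4.

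The next were on chromosome 8 (11057459 to 11059160; 296, 195 and 230), chromosome 2 (102866409 to 102868230; 233, 201 and 260) and chromosome 7 (156665022 to 156667702; 193, 251 and 278). The list went on with chromosome 13 (90535147 to 90536998; 203, 181 and 280) and 2 regions on chromosome 1 (212132159 to 212133808 and 161860098 to 161861593). The tenth was on chromosome 6 from 12017940 to 12019135 (216, 173 and 227). Chromosome 6 held 4 of the 10 and 11.4% of all 897. The 10 were picked by high score, and the share of chromosome 6 among other high-scoring regions was not taken. No MT1 or MT2 peak came closer than 22506 bp to any of the 10, and for the first the nearest was 1262264 bp away.

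At the other end, the 5 weakest regions had mean percentiles from 7.41 to 12.3, and their scores in the 3 lists ran from 90.6 to 106. The weakest was on chromosome 9 from 94865413 to 94866997 (95.5, 90.8 and 93.7). Chromosomes 10 (105232603 to 105233608), 16 (71323940 to 71324823), 22 (38822585 to 38824682) and 17 (27073858 to 27076969) held the rest. Such regions stood just inside the score limit in the lists that held them. Just outside the rule were regions in which MT1 or MT2 barely passed it. Of the 1918 regions held by WT bulk, WT transfected and MT4 and by at least 1 of MT1 and MT2, 128 (6.67%) had no score of 95 or more in either, and the lowest was 90.05, on chromosome 3 from 37017331 to 37018707.

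The 1 bp overlap itself decided few cases. The nearest MT1 or MT2 peak lay within 1 kb of 6 of the 897 regions (0.669%; 0.307 to 1.45%) and within 10 kb of 58 (6.47%; 5.04 to 8.27%). The median distance was 142338 bp to a peak of either, 156555 bp to one of MT1 and 431009 bp to one of MT2. The closest case was on chromosome 19 from 37785133 to 37785622, a narrow region of strong peaks (171 in WT bulk, 248 in WT transfected and 188 in MT4) with an MT2 peak at 69 bp and an MT1 peak at 89 bp. The second was on chromosome 16 from 46403278 to 46404156, where an MT1 peak lay at 221 bp. Its scores were 504 in WT bulk and 629 in WT transfected, the highest of all 897 in those lists, but 119 in MT4. The others of the nearest 5 were the weakest region on chromosome 9 (383 bp), 1 on chromosome 8 (72755689 to 72756993; 607 bp) and 1 on chromosome 17 (21905763 to 21907167; 663 bp).

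Peaks in the regions lacking MT1 and MT2 were narrower than those in regions held by all 5. The median width was 1254 bp in WT bulk, 1125 bp in WT transfected and 1202 bp in MT4, against 1662, 1518 and 1586 bp. The difference was -408, -393 and -384 bp in the 3 lists (SD of the 3 values 12.1 bp). For the mean width per region the medians were 1226 and 1574 bp, a difference of -348 bp. The class held by all 5 also scored higher, so the comparison was repeated within 5 score classes of equal size. The median width of both kinds was largest in the highest score class but did not rise at each step. The median in the regions lacking MT1 and MT2 was below that in regions held by all 5 in each class. It was 1182 against 1345 bp in class 1 (n = 368 and 24), 1182 against 1270 bp in class 2 (265 and 52) and 1294 against 1333 bp in class 3 (178 and 116). It was 1251 against 1530 bp in class 4 (74 and 212) and 1452 against 1715 bp in class 5 (12 and 431). The quartile ranges overlapped in each class. Scores still differ within a class, and their part in the remaining difference was not tested.

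**Figure D3:**
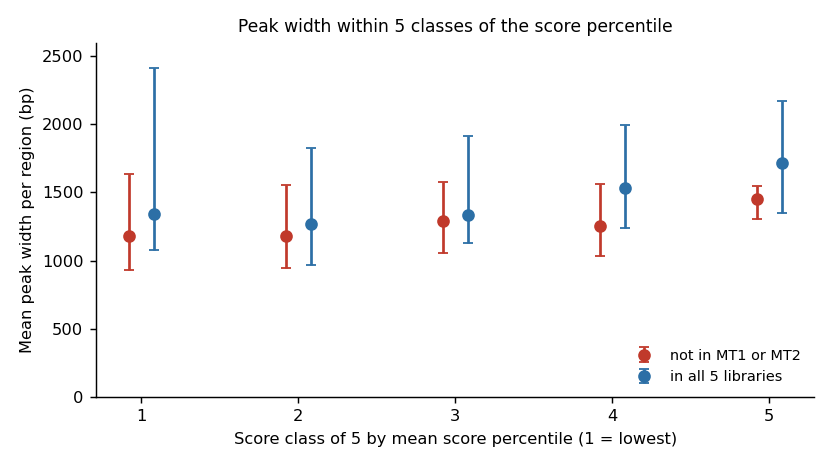
Mean peak width per region in bp (vertical axis, from 0) by 5 classes of the mean score percentile (horizontal axis, 1 lowest), for regions lacking MT1 and MT2 and regions held by all 5 libraries. Points are medians and bars quartiles; the medians of the first class lie lower in each class, at 1182 against 1345 bp in class 1 and 1452 against 1715 bp in class 5, with overlapping quartile ranges.

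The 3 peaks of a region covered much the same stretch. The stretch common to all 3 was 73.4% of that covered by any (median; quartiles 61.9 to 81.7%) in the regions lacking MT1 and MT2, and 78.9% (68.5 to 86.1%) in those held by all 5. By score class the medians were 73.8 against 73.4% in class 1, 73.3 against 75.7% in class 2 and 72.8 against 71.9% in class 3. They were 73.0 against 77.3% in class 4 and 72.8 against 81.6% in class 5. Wide regions were rare. A mean width of 3 kb or more was found in 20 of the 897 (2.23%) and in 52 of the 835 (6.23%).

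The 5 widest regions lay on the chromosomes of the BCR-ABL1 fusion. This fusion joins BCR on chromosome 22 to the tyrosine kinase gene ABL1 on chromosome 9, drives the leukaemia, and is present in extra copies in K562. Of the 5 widest, 4 were on chromosome 22: 19828911 to 19835290 (mean width 6248 bp), 19642751 to 19648622 (5388 bp), 23194953 to 23201355 (5238 bp) and 22645358 to 22650627 (4932 bp). The other was on chromosome 9, in the band of ABL1, from 134068965 to 134074828 (5145 bp). All 5 scored higher in MT4 than in both wild-type libraries. For the region from 19642751 to 19648622 the scores were close, at 140.77 in MT4 and 139.95 in WT bulk. Over all 897 regions the median score was also highest in MT4 (138, against 126 in WT bulk and 116 in WT transfected). The widest scored 93.9 in WT bulk, 97.9 in WT transfected and 138 in MT4, and the one on chromosome 9 scored 107, 102 and 340. Between 17 and 24 Mb on chromosome 22, a stretch that holds BCR, 16 of 47 regions held by WT bulk, WT transfected and MT4 lacked MT1 and MT2 (34.04%; 22.2 to 48.3%). The overall share, 31.9%, and the share given by the scores of these regions, 28.1%, both lay within that interval. Their median width was 1857 bp, and that of the 15 held by all 5 there was 2088 bp. Of the 20 regions lacking MT1 and MT2 with a mean width of 3 kb or more, 5 lay in this stretch.

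The 897 regions were spread over chromosomes 1 to 22 and X. Chromosome 1 held the most (140, 15.6%), then chromosome 6 (102, 11.4%) and chromosome 2 (61, 6.80%). Of the regions held by all 5 libraries, 13.5% were on chromosome 1, 10.9% on chromosome 6, 9.46% on chromosome 7, 8.74% on chromosome 5 and 7.66% on chromosome 2. As a share of the regions held by WT bulk, WT transfected and MT4 on a chromosome, those lacking MT1 and MT2 ranged from 23.1% on chromosome 4 (21 of 91) to 55.2% on chromosome 14 (16 of 29), beside 31.9% over the genome. The overall share lay outside the 95% Wilson interval on 3 of 23 chromosomes: 7 (25.7%; 20.4 to 31.8%), 12 (47.7%; 37.6 to 58.0%) and 14 (37.5 to 71.6%).

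Scores differ between chromosomes, so each region was also given the genome-wide share of its score class (of 10). On that basis chromosome 12 would have 39.5% and chromosome 14 43.5%, both within the measured intervals, and chromosome 7 would have 26.8%. Chromosomes 12, 13 and 14 were also pooled, a grouping that was not planned. On each of them alone the value from the scores lay within the interval (on chromosome 13, 35.4% within 28.9 to 60.5%). Together they had 73 of 151 regions lacking both (48.3%; 40.5 to 56.3%), against 39.4% from the scores, which lies below that interval. The interval of this gap (8.98 points) included 0 without MT1 (4.23 points), without MT2 (7.48) and without MT4 (7.29). It also did so at equal list length (6.05) and with the score limit on WT bulk, WT transfected and MT4 only (8.75). On 2 of 23 single chromosomes the value from the scores lay outside the interval, and on both the measured share was lower. Chromosome 4 had 23.1% (15.6 to 32.7%) against 33.1%, and chromosome 19 had 25.4% (30 of 118; 18.4 to 33.97%) against 35.6%. MT4 had 1.63% of its peaks on chromosome 4 and the other 4 libraries between 4.70 and 5.68%; the part of this in the share was not tested. The gap there was -9.98 percentage points (-17.4 to -0.336) with all libraries and -3.90 (-10.6 to 3.64) without MT4, and these intervals overlap. Its interval also included 0 without MT1 (-9.44 points) and at equal list length (-6.38). The same held with scores of at least the median of all peaks in every list (-13.98). With that limit on WT bulk, WT transfected and MT4 only, the gap was -0.681 points (-7.24 to 12.2). On chromosome 19 the gap lay mainly at 40 to 50 Mb, a segment chosen after its values were seen, where 2 of 25 regions lacked both (8%; 2.22 to 24.97%), beside 38.4% from the scores. The gap on chromosome 19 was -10.2 points (-17.2 to -1.62) with all libraries. It shrank to -1.48 points without MT1 and was 1.42 points, the other way, with every list at its best 1426 peaks. The interval included 0 in both cases and also without MT4 (-6.01). The same held with the median score limit in every list (-5.79) or on WT bulk, WT transfected and MT4 only (-2.38).

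**Figure D4:**
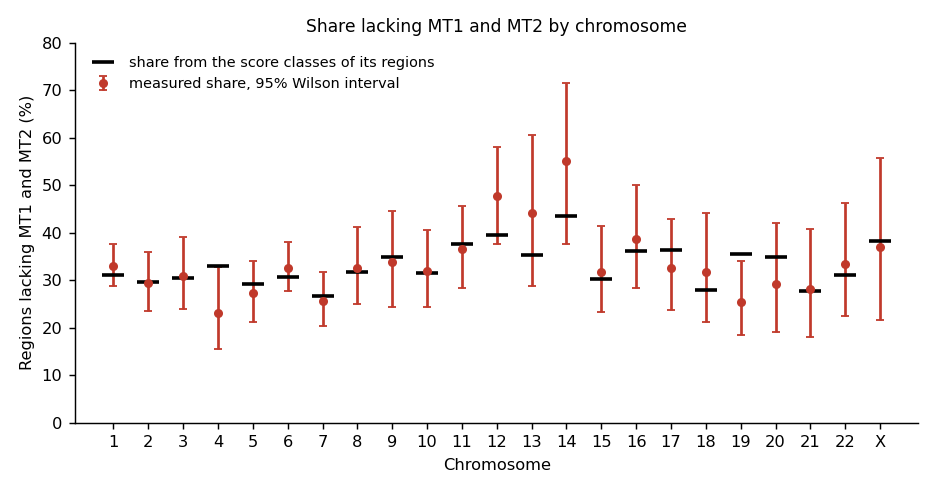
Percentage of regions held by WT bulk, WT transfected and MT4 that lacked MT1 and MT2 (vertical axis) on each chromosome (horizontal axis), as points with 95% Wilson intervals, with dashes for the share given by the score classes of the same regions. Dashes lie within the intervals except on chromosomes 4 and 19, where they lie above.

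Along the genome, the regions lay together about as often as those held by all 5 at a scale of 1 Mb, and less often at 100 kb. Another region of the same kind lay within 1 Mb for 64.7% of the 897 (61.5 to 67.7%) and for 65.1% of the 835 (61.9 to 68.3%). Within 100 kb the shares were 16.7% (150 regions; 14.4 to 19.3%) and 21.2% (177 regions; 18.6 to 24.1%), and within 10 kb 2.45% (22 regions; 1.63 to 3.69%) and 4.55% (38 regions; 3.33 to 6.18%). The difference at 100 kb was -4.48 percentage points, with an interval of -8.18 to -0.784 that leaves out 0. It changed sign when WT bulk, WT transfected or MT1 was left out. The counts were then 1320 against 851, 1913 against 899 and 1792 against 1023. Without MT2 (1085 against 1731) the difference was -13.8 points. It stayed negative without MT4 (1205 against 863; -0.424) and with the median score limit in every list (550 against 321; -3.26). The shares were not adjusted for the number of regions, and the part of that number in the difference was not tested. The median distance to the next region of the kind was 550505 bp against 454223 bp.

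**Figure D5:**
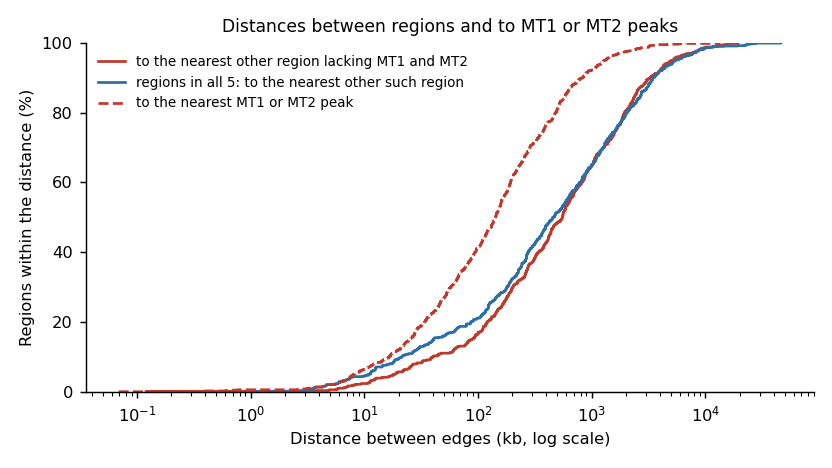
Percentage of regions (vertical axis) within a distance in kb between edges (horizontal axis, log scale), for the nearest other region of the same kind and for the nearest MT1 or MT2 peak. The solid curves of both kinds meet near 1 Mb, at 64.7% and 65.1%, and the dashed curve shows MT1 or MT2 peaks nearer, within 100 kb for 41.2% of the regions lacking them.

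Windows of 1 Mb held few of the regions each. Of the 653 windows with any, 479 had 1 and 14 had 4 or more. Windows with a region lacking MT1 and MT2 also held one found in all 5 libraries in 244 cases, 37.4% of the first kind of window and 42.4% of the 575 windows of the second kind. Chromosome 6 had the fullest windows, with 7 regions between 27 and 28 Mb and 6 between 28 and 29 Mb. The first of these includes part of the large histone gene cluster, whose genes encode the core of the nucleosome. Both windows also held regions found in all 5 libraries (6 and 5), so absence from MT1 and MT2 was not common to the whole of either.

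These windows were picked for holding the most regions, so their shares lacking both are high by that choice, beside 31.9% over the genome. In 5 of the other windows no region was held by all 5 libraries. Chromosome 12 at 57 to 58 Mb had 5 lacking both of 6 regions held by WT bulk, WT transfected and MT4, and none of the 6 was held by MT1. Chromosome 22 at 23 to 24 Mb, the window of BCR, had 5 of 7, where the lists of WT bulk and WT transfected had 11 peaks each, MT1 had 5, MT2 had 0 and MT4 had 23. Chromosome 1 had 5 of 7 at 149 to 150 Mb, where 1 region was held by all 5, 4 of 6 at 20 to 21 Mb and 4 of 4 at 223 to 224 Mb. Chromosome 5 had 4 of 4 at 180 to 181 Mb. Neither MT1 nor MT2 had any peak at 223 to 224 Mb on chromosome 1, where WT bulk and WT transfected had 5 each and MT4 had 10. The last of the 10 windows, each with 4 of 8, began at 13 Mb on chromosome 6 and at 42 Mb on chromosome 8.

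Runs of consecutive absence held few regions each. Of the 897 regions, 391 had on both sides, among the regions held by WT bulk, WT transfected and MT4, one that MT1 or MT2 held or the end of the chromosome's series. Since 31.9% of all regions held by WT bulk, WT transfected and MT4 lacked both, some runs arise from that share alone. Runs were neither compared with that share nor counted for regions held by all 5 libraries. Runs of 3 or more numbered 61 and took in 218 regions (24.3%). The longest had 6 regions, and there were 6 of that length. The first 3 in genome order were on chromosome 1 from 39043736 to 40335900, chromosome 5 from 179242439 to 180487443 and chromosome 10 from 70038594 to 71814238, each spanning between 1245 and 1776 kb. Chromosome 12 had 2 of the 6 runs, from 47628388 to 49119022 and from 50354435 to 53592291. The other, on chromosome 14 from 24779516 to 38092193, had the longest span of the 6, 13313 kb.

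Absence was compared between neighbours. Where the nearest region within 100 kb lacked MT1 and MT2, the region itself lacked both in 33.7% of cases (119 of 353; 28.98 to 38.8%). Where the nearest was held by all 5, it lacked both in 26.6% (n = 380; 22.4 to 31.2%). The gap was 7.13 percentage points, with an interval of 0.49 to 13.7 that was wholly positive. In the alternatives the interval was also wholly positive, except without MT2 (3.17 points; -2.52 to 8.93). The shares given by the score classes of the same regions were 32.5% and 27.2%, each within the interval of its own share. The part of the scores in the gap was not tested. With no neighbour within 100 kb, 32.8% lacked both (536 of 1634; 30.6 to 35.1%).

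A pair of well-known gene clusters crossed the set. On chromosome 5 between 140 and 141 Mb, where the clustered protocadherin genes for neuronal cell surface proteins lie, were 3 of 20 regions lacking both (15%; 5.24 to 36.0%), beside 13.7% from the scores. On chromosome 6 between 30 and 33 Mb, within the major histocompatibility complex, were 4 of 15 (26.7%; 10.9 to 52.0%), beside 41.2%. In both, the value given by the scores lay within the interval.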

How the data were processed

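MeDIP-seq peak lists of 5 K562 libraries (2 wild type, 3 DNMT3A mutated) were used. Per the labels' protocols, libraries were read as paired ends of 100 to 125 bp, with about 40 M reads each as the target. The depth reached is not known here. The submitters' processing notes name hg19, Bowtie 1.1.1 and edgeR, without a role. Peaks were called per library, and the peak names begin with MACS, per the deposited files; its version, threshold and any input were not given in the sources used here. Each score is the authors' own value, as deposited. It ranked peaks within a list, and where a score limit was set it was the same for each list it applied to. Median and single scores are also given by list. The alternative to the percentile averaged scores over WT bulk, WT transfected and MT4. Whether scores can be compared between lists was not tested.

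Peaks were merged at 1 bp of overlap (Python 3.11.15, numpy 2.4.6, pandas 2.3.3, scipy 1.17.1; figures with matplotlib 3.10.9). Coordinates are hg19, counted from 1. A region's percentile and width are those of its highest-scoring peak in a list, averaged over WT bulk, WT transfected and MT4. No test was run, since the pattern uses all libraries. The members, rules and settings were chosen with earlier results of these data known. Regions named were the 10 with the highest and 5 with the lowest mean percentile, the 5 widest, the 5 nearest to an MT1 or MT2 peak, the 10 windows of 1 Mb with the most and the 3 longest runs; ties went by genome order. The merging code was run on simulated lists, where 200 of 200 planted regions of this pattern were recovered. Peaks of a simulated region always overlapped and separate regions never touched. This checked the code only, not narrow or closely spaced peaks. Without a reference in hg19, genes and sequences were not assigned; landmarks named are background.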

Additional observations from a re-analysis of the deposited data

How the results depend on the processing

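No paired analysis was possible because the labels pair no wild-type library with a mutated line and no test was made. In all that follows, differences are the regions lacking MT1 and MT2 minus those held by all 5, or as stated, and the cause of a shift was not tested except that fewer peaks or fewer libraries to satisfy change the counts by construction. The alternatives for neighbours and chromosomes were added after the data were seen.

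With scores of at least 121.64, the median of all peaks, in every list, there were 550 regions, the gap in the share lacking both between score classes 1 and 10 was 76.9 percentage points (70.2 as reported), and that between neighbours of the 2 kinds 20.6 points (7.13 as reported). With that limit on WT bulk, WT transfected and MT4 only, these became 187, 37.8 and 15.6, the width difference -386 bp and the difference in the share with a like region within 100 kb -13.4 points. With every list at its best 1426 peaks they were 57, 28.8, 17, -249 bp and -10.5 points, the percentile difference was -29.5 points, and the gap on chromosome 19 turned to 1.42 points. The counts 550, 187 and 57 were 38.6% of 1425, 13.1% of 1426 and 8.66% of 658 regions held by WT bulk, WT transfected and MT4. The share as reported was 31.9% of 2815. The deposited score in place of the percentile gave a difference of -79.5. An overlap of 50% and a gap of 500 bp gave 895 regions each, absence within 1 kb and 10 kb 891 and 839, and leaving out chromosomes 4 and 7 gave 819.

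Without one library the number ran from 1085 (MT2) to 1913 (WT transfected): it was 1320 without WT bulk, 1792 without MT1 and 1205 without MT4. Shares were taken of the regions held by whichever of WT bulk, WT transfected and MT4 remained. They were 39.3% of 3361 without WT bulk and 44.9% of 4258 without WT transfected. Without MT1, MT2 and MT4 they were 63.7% of 2815, 38.5% of 2816 and 36.9% of 3262. The percentile difference ran from -42.3 (MT4) to -23.5 (MT2), with -26.6 without MT1 and -39.2 and -40.6 without WT bulk and WT transfected. The width difference was -395 and -398 bp without WT bulk and WT transfected, -229 bp without MT1, -250.3 bp without MT2 and -393.5 bp without MT4. The difference within 100 kb turned positive without WT bulk (0.640 points), WT transfected (7.60) and MT1 (9.30), and was -13.8 without MT2 and -0.424 without MT4. The gap between score classes ran from 73.6 to 78.2 points without a wild-type and from 70.9 to 81.2 without a mutated library; that between neighbours from 3.17 (MT2) to 11.9 (MT1). The gap on chromosome 19 ran from -10.1 (MT2) to -1.48 (MT1), that on chromosome 4 from -15.4 (WT transfected) to -3.90 (MT4), and that on chromosomes 12, 13 and 14 from 4.23 (MT1) to 9.86 (WT transfected). Of the 24 regions named by rule, 11 kept the pattern at equal list length. The description by sequence and annotation was not run, for want of a reference in hg19.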

Other observations

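The reverse pattern, a peak in MT1 and MT2 and in none of the other 3 libraries, was found in 10 regions (0.0888% of 11260). Their scores ran from 92.5 to 160 in MT1 and from 91.2 to 126 in MT2, with median percentiles of 32.6 and 28.6 and median widths of 1003 and 1250.5 bp.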
